A study of Homo sapiens with 12 samples.

Results

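The 8 genes described here encode 6 plasma proteins made by the liver, TTR, TF, HP, HPX, RBP4 and VTN, and both subunits of a hepatocyte receptor, ASGR1 and ASGR2. They were taken by name, as 8 of the 19974 protein-coding genes on chromosomes 1 to 22 and X. No measured value entered the rule, but earlier results of these data were known when the genes were chosen. For each gene, the positions of H3K27ac and H3K4me1 summits were read at its annotated ends and within 50 kb of it. Transthyretin (TTR) carries thyroid hormone and, bound to the retinol carrier RBP4, vitamin A. Transferrin (TF) carries iron, haptoglobin (HP) binds free haemoglobin and hemopexin (HPX) binds free haem. Vitronectin (VTN) is an adhesive plasma protein that also binds the matrix and plasminogen activator inhibitor. ASGR1 and ASGR2 form the asialoglycoprotein receptor, which takes up glycoproteins that have lost their terminal sialic acid. Hepatocytes are the main source of these plasma proteins, and transcription of such genes depends on promoters and enhancers bound by liver factors such as HNF1, HNF4, FOXA and C/EBP.

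The cells were Huh7, 1 human line of hepatocellular carcinoma, so other lines and normal hepatocytes are not represented. They were kept for 48 h in choline-free medium with B-27 in place of serum, to which 15 µM or 0 µM choline chloride was added. The labels give the genotype of all 4 libraries used here as wild type. Each mark and dose had 1 ChIP-seq library. The study lists 12 samples, and the 8 others, which are inputs, RNA-seq and KLF5 CUT&Tag, were not analysed here. H3K27ac is an acetylation of active promoters and enhancers, and H3K4me1 is a methylation typical of enhancers that also flanks active promoters.

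A summit is the position of highest signal in a called peak, and its score, given by the authors as a −log10 significance value, ranks it within its own list. The H3K27ac lists held 29305 summits at 15 µM, against 37946 at 0 µM, a ratio of 0.772. The H3K4me1 lists held 349202 at 15 µM, against 343156 at 0 µM, a ratio of 1.02. Depth is unknown, every difference between doses is between 2 libraries, and no test was possible. Fewer cells with a mark and less of the mark in each cell cannot be told apart. The 6 hepatocyte markers checked (ALB, APOA1, FGB, SERPINA1, HNF4A and AFP) all had H3K27ac summits within 50 kb, 164 in sum at 15 µM, against 122 at 0 µM. ALB and AFP, neighbours whose windows overlap and share summits, made up the difference (44 at 15 µM, against 24 at 0 µM, and 42, against 18), and the other 4 had 78 at 15 µM, against 80 at 0 µM. Over 5 blood cell markers the sums were 14 and 16, over 5 fibroblast, stellate and endothelial markers 15 and 12, over 4 bile duct markers 2 and 5, and over 5 neuron and muscle markers 0 and 1. Of these other markers, PDGFRB, VWF, KRT7, NEUROD1, NEUROG2, MYOD1 and DES had no H3K27ac summit at either dose. In contrast, LYZ had 10 at 15 µM, against 8 at 0 µM, and PECAM1 had 9, against 6. Both had an H3K27ac summit within 1 kb of a gene end at both doses, whereas the hepatocyte marker SERPINA1 had none there at either dose.

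The stretches before the starts of 4 of the genes are printed because H3K27ac summits lay within 1 kb of these starts in both libraries. They are the 250 bases before a RefSeq transcript start (GRCh38.p14), on the gene's own strand. The RefSeq promoter table matched TF, RBP4, HPX and VTN, with 7 listed starts. The windows of the far TF start at 133661998 and of another RBP4 start at 93601513, which also had H3K27ac within 1 kb in both libraries, are not printed. The second RBP4 window was chosen for its TATA box. Capitals mark matches to short motifs on either strand. The TATA box was searched as TATAAA and the HNF1 half-site as GTTAAT. FOXA sites were searched in an A form, TGTTTAC, and in a G form, which was written as TGTTTGC. The HNF4 half-site was searched as CAAAGT and the C/EBP site as TTGCNNAA. The GC box was searched as GGGCGG and the KLF-type box as CCACCC.
TF, chr3:133746143-133746392, plus strand: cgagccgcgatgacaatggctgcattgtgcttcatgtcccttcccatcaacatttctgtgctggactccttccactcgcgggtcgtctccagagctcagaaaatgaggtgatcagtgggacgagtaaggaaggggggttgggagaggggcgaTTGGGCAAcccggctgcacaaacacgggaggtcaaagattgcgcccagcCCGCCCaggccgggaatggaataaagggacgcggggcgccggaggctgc
RBP4, start nearest to H3K27ac, chr10:93601745-93601994, minus strand: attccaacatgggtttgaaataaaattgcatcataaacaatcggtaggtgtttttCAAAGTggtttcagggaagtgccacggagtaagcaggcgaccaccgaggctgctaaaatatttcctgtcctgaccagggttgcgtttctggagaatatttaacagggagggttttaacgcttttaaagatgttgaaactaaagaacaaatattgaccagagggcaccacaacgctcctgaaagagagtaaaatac
RBP4, start with a TATA box, chr10:93601236-93601485, minus strand: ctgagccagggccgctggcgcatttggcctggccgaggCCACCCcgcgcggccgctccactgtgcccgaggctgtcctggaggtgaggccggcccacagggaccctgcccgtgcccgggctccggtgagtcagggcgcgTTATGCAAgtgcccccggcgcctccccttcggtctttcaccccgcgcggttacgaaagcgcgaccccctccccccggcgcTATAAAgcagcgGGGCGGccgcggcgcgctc
HPX, chr11:6440988-6441237, minus strand: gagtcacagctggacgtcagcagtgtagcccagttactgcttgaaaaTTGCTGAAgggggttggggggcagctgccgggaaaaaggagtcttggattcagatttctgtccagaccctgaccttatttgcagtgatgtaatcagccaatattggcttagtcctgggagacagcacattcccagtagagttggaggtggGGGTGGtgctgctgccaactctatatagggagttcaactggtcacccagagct
VTN, chr17:28370308-28370557, minus strand: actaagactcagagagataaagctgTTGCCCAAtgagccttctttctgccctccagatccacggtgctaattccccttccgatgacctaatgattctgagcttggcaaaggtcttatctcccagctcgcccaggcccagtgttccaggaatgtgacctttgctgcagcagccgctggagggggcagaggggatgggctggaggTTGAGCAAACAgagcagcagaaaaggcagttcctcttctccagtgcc

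Of the 7 windows, the C/EBP letters were present in 4, those of the inner TF start, HPX, VTN and the TATA-bearing start of RBP4, and absent from both windows not printed. Over all RefSeq promoters, 9.06% of 34943 such windows hold these letters. In VTN, 2 matches were found, and the one nearer to the start overlaps the only FOXA match of the printed windows, letters that 3.24% of all windows hold. RBP4 had TATAAA from 31 to 26 bases before the start chosen for it, letters that 10.8% of all windows hold. The unprinted RBP4 window holds the same letters farther away, from 225 to 220 bases before its start. The GC box letters were present in both TF windows and in the TATA-bearing RBP4 window (42.5% of all windows). The CACCC letters were present in HPX, in that RBP4 window and in the unprinted one (31.3%). The HNF4 half-site letters were found only in the window of the RBP4 start nearest to H3K27ac, against 10.3% of all windows. A match describes letters and is not a measured binding site, and neither HNF1 letters nor the A form of FOXA occurred in the 7 windows. HNF1 letters occur in 6.24% of all windows and the A form of FOXA in 2.98%. The 5 printed windows ranged from 41.6% to 74.8% GC, both extremes being RBP4 starts, beside a median of 58.0% over all windows.

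Most of the 8 genes had H3K27ac at an annotated end in both libraries, in which an end counts when a summit lies within 1 kb of it. At 15 µM, 7 of the 8 had such a summit (87.5%, exact Clopper-Pearson 95% interval 47.3 to 99.7), against 16.2% of all protein-coding genes. At 0 µM, 6 of the 8 did (75.0%, 34.9 to 96.8), against 28.3%. None of the 6 was without a summit within 2 kb at 15 µM, whereas 43.9% of all genes with an end summit at 0 µM were and 56.1% were not. Among all genes, keeping a summit went with the score at 0 µM. With the genes ranked by that score and split into 4 parts of equal size, it was kept by 84.1% in the highest part, which held TF, HPX, RBP4, VTN and ASGR2 with scores of 21.7 or more. In the part next to the lowest, with scores from 9.93 to 14.4, it was kept by 46.0%, and TTR was in that part. By the same rule 10.5% of all genes with an end summit at 15 µM had none within 2 kb at 0 µM, and 0 of the 7 genes here. The end summits of TF were all within 1 kb of ends of its neighbours TOPBP1 and LOC124909487 as well, so they cannot be assigned to TF alone. The intervals cover counting error only.

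The number of H3K27ac summits in the whole 50 kb windows was 38 at 15 µM, against 49 at 0 µM over the 8 genes. This ratio of 0.776 lay beside the 0.772 of the whole lists. After scaling by the list lengths, with a pseudocount of 0.5, counts at 15 µM were at least 1.5 times higher for RBP4 alone, 1 of 8 genes, against 13.9% of the 13612 genes with any H3K27ac summit in the window. They were at least 1.5 times lower for ASGR1 and ASGR2, 2 of 8, against 38.5% of those genes. At any size, 3 of the 8 genes were higher after scaling (37.5%), against 36.7% of those genes, and the median scaled log2 ratio was -0.11 over the 8 genes and -0.39 over those genes. The calls depended on the window. At 20 kb, HP (1.58), HPX (0.97) and VTN (0.68) also passed 1.5 times higher on the log2 scale, HP with 1 summit at 15 µM and 0 at 0 µM. At 5 kb, a window added after seeing the data, ASGR1 no longer passed the lower limit (-0.45). The shares of all genes passing these limits at 20 kb and 5 kb were not counted. The calls at those windows therefore have no background beside them. Per 100 kb of window, the 8 genes had a median of 1.84 H3K27ac summits at 15 µM, against 4.18 at 0 µM, beside 0.489 and 1.01 over all genes.

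**Figure D1:**
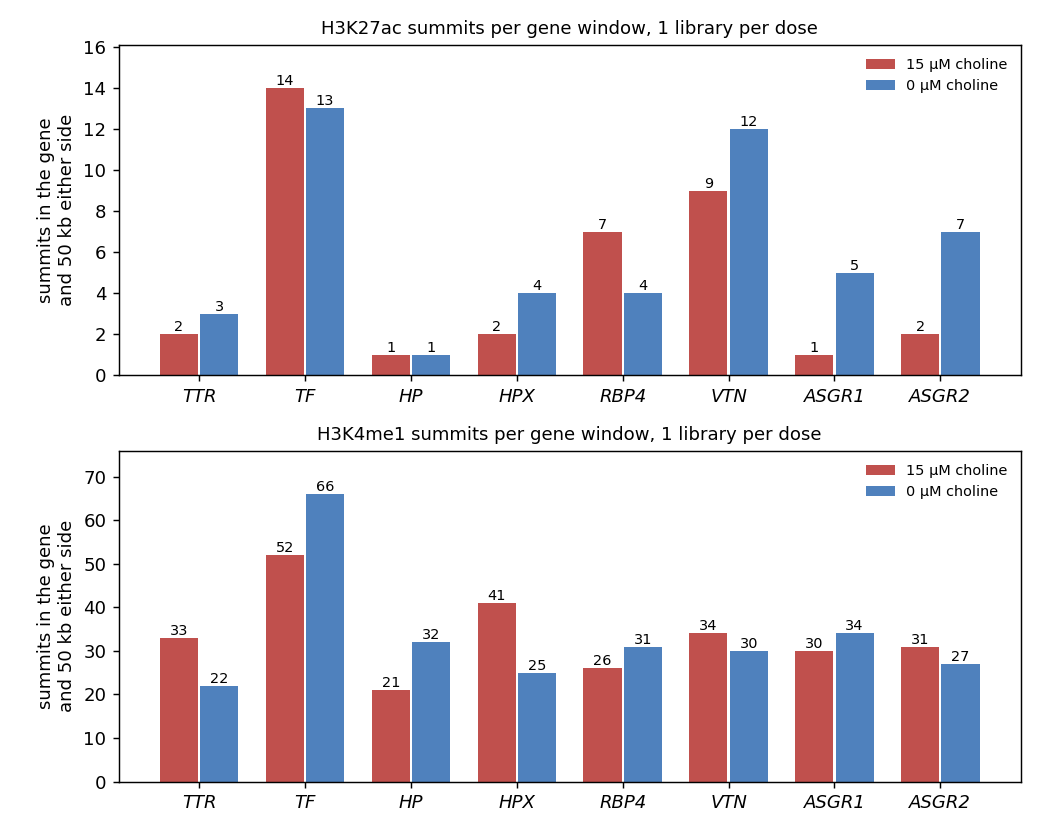
Number of H3K27ac summits (upper plot) and H3K4me1 summits (lower plot) in each gene and 50 kb either side, at 15 µM choline (red) and 0 µM (blue), 1 library per mark and dose and no error bars. RBP4 had 7 H3K27ac summits at 15 µM, against 4 at 0 µM, and ASGR2 had 2 and 7.

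These counts varied with the distance from the gene. Within the genes and 5 kb around them, a span picked once the data had been seen, the 8 genes held 30 H3K27ac summits at 15 µM, against 26 at 0 µM, a ratio of 1.15 beside 0.752 over all protein-coding genes. TF, with its long annotation, held 14 of these at 15 µM and 11 at 0 µM, and without it the counts were 16 and 15. Within 20 kb, a span planned beforehand, the 8 genes held 30 at each dose, a ratio of 1 beside 0.733 over all genes. Without TF, the 20 kb counts were 16 at 15 µM, against 17 at 0 µM. TF, HP, HPX, RBP4 and VTN had more summits at 15 µM in the 5 kb span, and TTR, ASGR1 and ASGR2 had fewer. More at 15 µM was thus seen in 5 of 8 genes, against 19.4% of the 9296 genes with a summit in that span, and fewer in 3 of 8, against 63% of them. From 20 to 50 kb away, the 8 genes held 8 summits at 15 µM, against 19 at 0 µM, a ratio of 0.421 beside 0.698 over all genes. In this outer span no gene had more at 15 µM, 5 had fewer and 3 had equal numbers, which for TTR and TF were 0 at both doses. Over all protein-coding genes, 8.69% had more there, 28.1% had fewer and 63.2% had equal numbers. These shares include genes with no summit there at either dose, which the shares for the 5 kb span leave out. Among all genes, 5617 had fewer and 1736 had more in the outer span, so fewer was the commoner direction there as well. Several of these outer summits, and some of those within 5 kb, lay at the ends of neighbouring genes, as given below for each locus. The only HP summit in the 5 kb span, at 15 µM, was within 1 kb of the end of HPR.

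**Figure D2:**
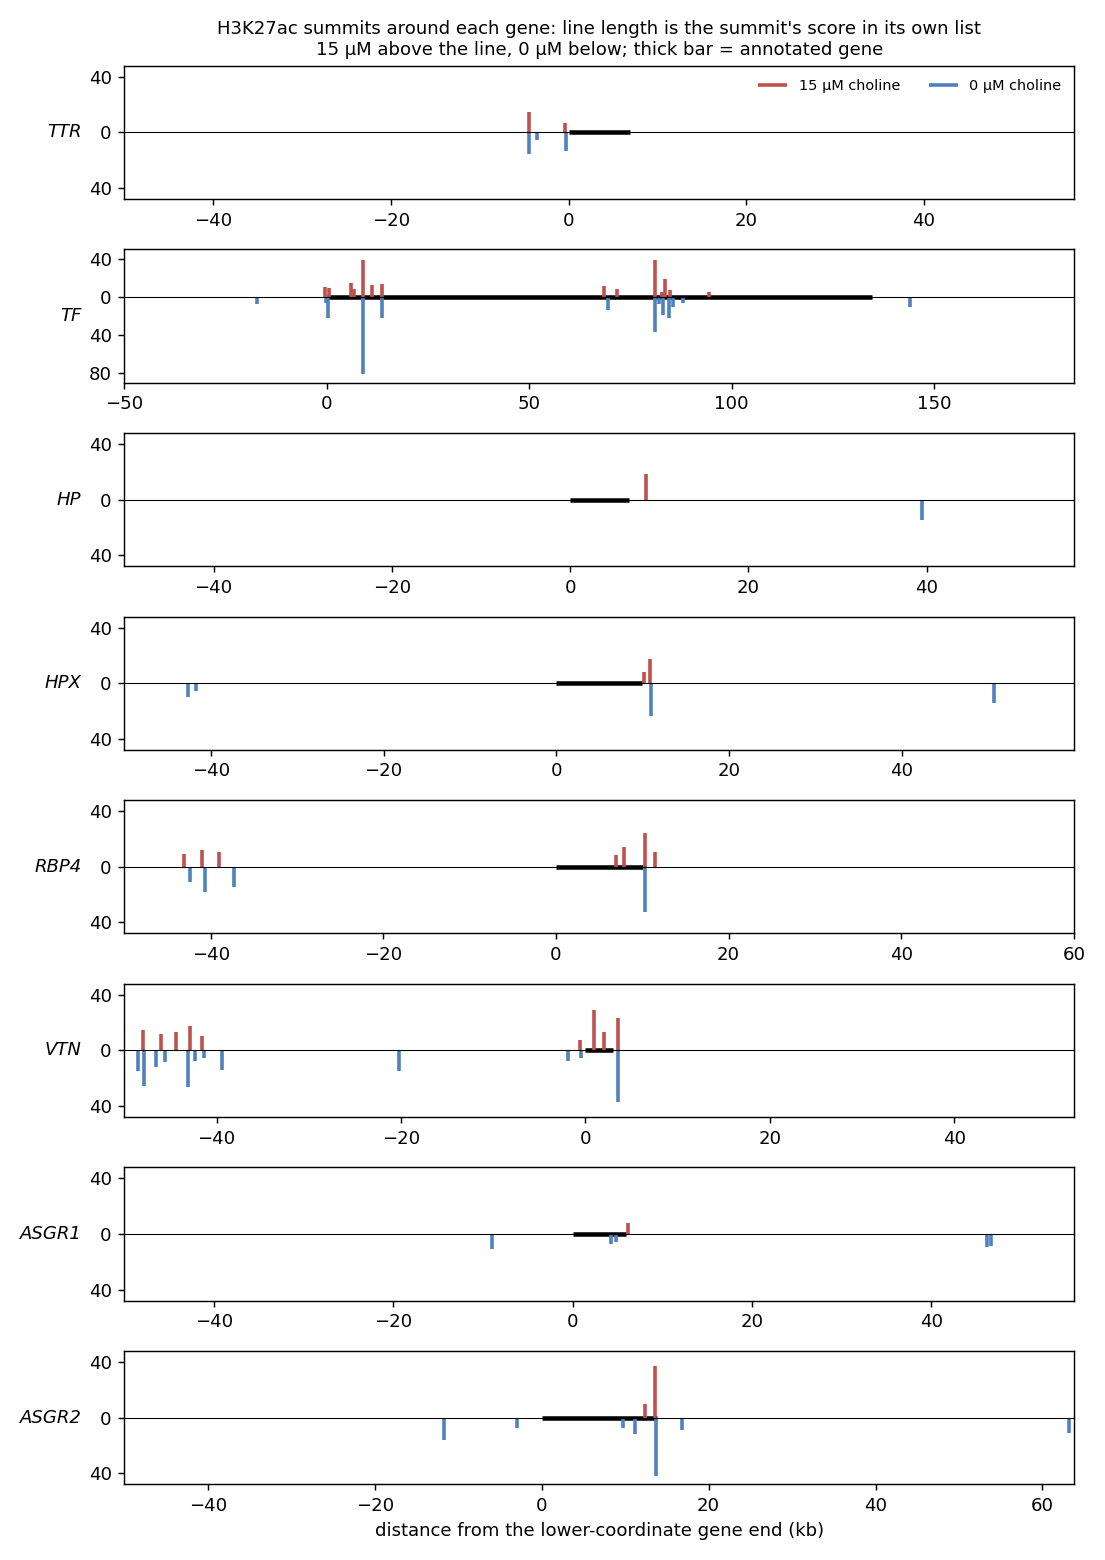
H3K27ac summits around each gene, with distance in kb from the end at the lower coordinate on the horizontal axis and the summit's score on the vertical axis, upward for 15 µM choline and downward for 0 µM. The thick bar is the annotated gene, scores rank summits within their own list only, and the tallest line is the TF summit with a score of 80.6 at 0 µM.

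Among the carriers, TTR (chromosome 18, 31591877 to 31598821, hg38) had 2 H3K27ac summits in its window at 15 µM, against 3 at 0 µM, all on the side of its lower-coordinate end. At 15 µM they lay 349 and 4476 bp outside that end, with scores of 7.00 and 14.6. At 0 µM they lay 262, 3551 and 4401 bp outside it, with scores of 13.3, 5.38 and 15.8. The pair near the end was 87 bp apart between the libraries and the pair farther out 75 bp apart, so the counts differ by the low-scoring summit at 0 µM. The TTR window held no H3K27ac summit inside the gene or beyond its other end. H3K4me1 summits numbered 33 at 15 µM, against 22 at 0 µM, a scaled log2 ratio of 0.55, short of the 1.5-fold limit. DSG2 and B4GALT6 also reach into this window, and DSG2, a desmosomal cadherin, had H3K4me1 at an end.

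TF (chromosome 3, 133661998 to 133796641) had the most H3K27ac window summits of the 8 genes, 14 at 15 µM, against 13 at 0 µM. Its window was also the longest. Per 100 kb of window, TF had 5.97 at 15 µM and 5.54 at 0 µM. VTN had more (8.74 and 11.6), as did RBP4 at 15 µM (6.36) and ASGR2 at 0 µM (6.15). The annotated span of TF is long because RefSeq lists a far transcript start at 133661998. This start lies beside the end of TOPBP1, a DNA damage response protein, and overlaps LOC124909487. Each H3K27ac summit within 1 kb of the far start, in either library, also lay within 1 kb of ends of both of these genes. The other listed start, at 133746393, lies well inside the span. Counted from that start, an alternative chosen after seeing the data, TF had 7 H3K27ac summits at 15 µM, against 8 at 0 µM. Around that start, the nearest H3K27ac summit was 313 bp downstream with a score of 7.13 at 15 µM, and 156 bp downstream with a score of 21.8 at 0 µM.

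The strongest TF summits recurred at nearly the same base. The summit at 133670850 at 15 µM scored 38.5, above 98.5% of its list. Its counterpart at 133670853 at 0 µM scored 80.6, above 99.5%. A second pair, upstream of the inner start, lay at 133742986 (score 38.3) at 15 µM, against 133742992 (score 36.7) at 0 µM. Another pair lay on the same base, 133675629, with scores of 13.2 at 15 µM, against 22.3 at 0 µM. Summits joined within 12.5 kb formed 2 stretches in TF. The one at the inner start held 7 summits in both libraries, over 25952 bp at 15 µM and 18733 bp at 0 µM. The one at the far start held 7 summits over 14154 bp at 15 µM and 4 over 13879 bp at 0 µM. The median stretch of either list had 2 summits.

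H3K4me1 in the TF window had 52 summits at 15 µM, against 66 at 0 µM, a scaled log2 ratio of -0.37. The highest-scoring lay 218 bp apart in the libraries, at 133744913 (score 45.1) at 15 µM, against 133744695 (score 29.7) at 0 µM, both upstream of the inner start. The genes whose 4 window counts were most like those of TF were GAS2, NT5DC1 and SLC28A1, by the summed absolute difference in log2(count + 1), which was 0.223, 0.383 and 0.395. Over 2 marks and 2 doses, GAS2 had 14 H3K27ac summits at 15 µM, against 14 at 0 µM, and 55 H3K4me1 summits at 15 µM, against 64 at 0 µM.

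HP (chromosome 16, 72054505 to 72061055) was the gene with no H3K27ac summit at an own end at either dose. Its window held 1 at each dose, 30994 bp apart. At 15 µM it lay 1936 bp beyond the upper end of HP with a score of 18.5, within 1 kb of the end of HPR, the neighbouring haptoglobin-related gene. At 0 µM it lay 32930 bp beyond HP with a score of 14.5, at the adjoining ends of TXNL4B and DHX38, both of which encode splicing factors. HPR is a close copy of HP, and reads shared by such copies may be placed on either gene or dropped, depending on settings that are not given in the sources used here. H3K4me1 was present at the HP ends in both libraries, 56 bp outside the lower end with a score of 12 at 15 µM and 649 bp outside it with a score of 16.1 at 0 µM. The HP window held 21 H3K4me1 summits at 15 µM, against 32 at 0 µM, a scaled log2 ratio of -0.62. Among summits scoring at or above their list's median, however, both libraries had 13. HP was the 1 of the 8 genes with an H3K4me1 count at least 1.5 times lower, against 7.87% of all genes with H3K4me1.

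HPX (chromosome 11, 6431049 to 6440987) had 2 H3K27ac summits at 15 µM, both upstream of its start and none elsewhere. They lay 182 bp upstream with a score of 7.69 and 868 bp upstream with a score of 17.3. At 0 µM there were 4 summits, of which the highest, with a score of 23.3, lay 990 bp upstream of the start and 122 bp from its counterpart at 15 µM. The others were 2 summits 42690 and 41755 bp below the gene, with scores of 10.01 and 5.38, and 1 with a score of 14.6 at the ends of ARFIP2 and TIMM10B. H3K4me1 lay 24 bp from the upstream H3K27ac summit at 15 µM, with a score of 21.5. The HPX window held 41 H3K4me1 summits at 15 µM, against 25 at 0 µM, a scaled log2 ratio of 0.68. HPX was the 1 gene with a count at least 1.5 times higher, against 10.1% of all genes with H3K4me1. In the gene and 5 kb around it, both libraries had 5. The additional H3K4me1 summits lay farther out, where SMPD1, APBB1, TRIM3, ARFIP2 and TIMM10B had H3K4me1 at their ends.

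RBP4 (chromosome 10, 93591694 to 93601744) had 7 H3K27ac summits at 15 µM, against 4 at 0 µM, a scaled log2 ratio of 1.06. The highest lay 277 bp upstream of the outermost start with a score of 24.3 at 15 µM, and 309 bp upstream with a score of 32.9 at 0 µM, above 93.8% and 93.5% of their lists. At 15 µM, 3 further summits lay near it, 1 at 1468 bp upstream with a score of 10.7 and 2 inside the gene, with scores of 14.6 and 8.27. At 0 µM the start summit stood alone. Both libraries also had 3 distal summits, from 39020 to 43132 bp below the gene at 15 µM and from 37326 to 42379 bp below it at 0 µM. The neighbour FFAR4, a fatty acid receptor gene, had no H3K27ac summit at an end. Each of the 7 summits at 15 µM had a score under 25. In H3K4me1 the RBP4 window held 26 summits at 15 µM, against 31 at 0 µM, with the highest at 1122 bp upstream at 15 µM and 1187 bp at 0 µM, beyond the H3K27ac summit. FFAR4 and PDE6C, a cone photoreceptor gene, had H3K4me1 at their ends.

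**Figure D3:**
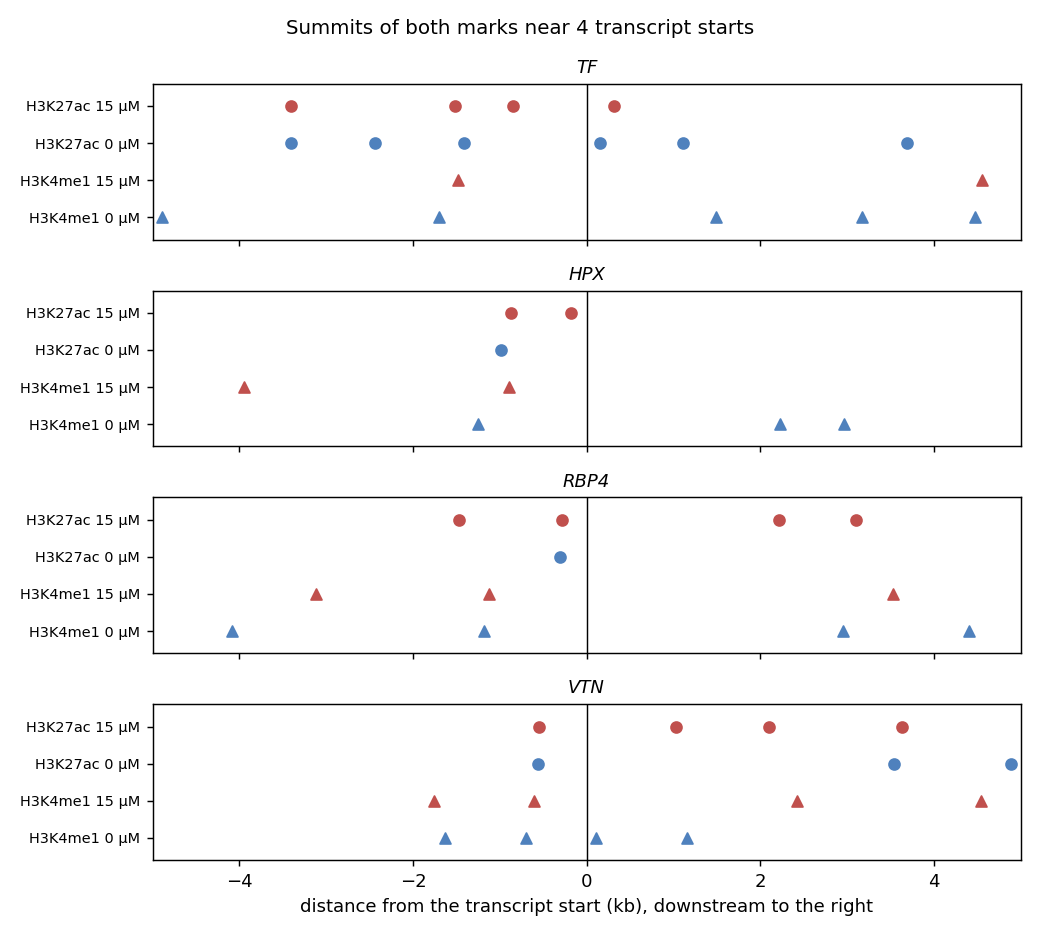
Summits within 5 kb of the TF, HPX, RBP4 and VTN transcript starts (the listed start nearest to H3K27ac at 15 µM), with distance in kb from the start and downstream to the right. Circles are H3K27ac, triangles H3K4me1, red 15 µM choline and blue 0 µM. For RBP4, 4 H3K27ac summits lay around the start at 15 µM, against 1 at 0 µM.

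VTN (chromosome 17, 28367284 to 28370307) had 9 H3K27ac summits at 15 µM, against 12 at 0 µM. The summit at its start was 543 bp upstream with a score of 23.3 at 15 µM, and 559 bp upstream with a score of 37.4 at 0 µM. It lay between VTN and SARM1, a neighbouring gene for an NAD-cleaving enzyme of axon degeneration, and was within 1 kb of both. Inside the short gene there were 2 summits at 15 µM, with scores of 29.1 and 13.2, and none at 0 µM. Both libraries had a summit outside its lower end, 617 bp away with a score of 7.13 at 15 µM and 515 bp away with a score of 5.67 at 0 µM. In the 20 to 50 kb span, VTN had 5 summits at 15 µM, against 9 at 0 µM. They lay near TMEM97, IFT20, TNFAIP1 and POLDIP2, and the 0 µM list alone had summits within 1 kb of the ends of the last 3 and of SEBOX. Within 1 kb of TMEM97 there was 1 summit at 15 µM, and there were 3 at 0 µM. H3K4me1 in the VTN window had 34 summits at 15 µM, against 30 at 0 µM. VMA12 and SLC46A1, a folate transporter gene, had only H3K4me1 at their ends.

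The receptor genes lie near each other, ASGR2 at 7101322 to 7115146 and ASGR1 at 7173431 to 7179370 on chromosome 17, and their windows overlap. ASGR1 had 1 H3K27ac summit at 15 µM, against 5 at 0 µM. ASGR2 had 2 at 15 µM, against 7 at 0 µM, and 1 of these at 0 µM, at 7164445 with a score of 11.2, belongs to both windows. Scaled log2 ratios were -1.54 and -1.24. Both had fewer summits at 15 µM at 20 kb and at 100 kb as well.

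In ASGR1, the single summit at 15 µM lay 238 bp outside the upper end with a score of 8.10, above 25.2% of its list. At 0 µM the nearest were inside the gene, 1102 and 1650 bp from that end, with scores of 5.93 and 7.43. ASGR1 therefore had an end summit by the 1 kb rule at 15 µM and not at 0 µM, but it had one within 2 kb in both. The other ASGR1 summits at 0 µM were the one shared with ASGR2 and a pair near DLG4, a postsynaptic scaffold gene, with scores of 9.69 and 8.55. The 5 ASGR1 window summits at 0 µM scored above 3.68% to 51.9% of their list.

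In ASGR2, the end summit recurred with a high score. It lay 205 bp inside the upper end with a score of 37.0 at 15 µM, above 98.3% of its list, and 170 bp inside it with a score of 41.9 at 0 µM, above 96.4%. The positions were 35 bp apart. A second summit at 15 µM lay 1423 bp inside that end with a score of 10.2. At 0 µM there were 2 further summits inside the gene, with scores of 7.45 and 12.1, and 4 outside it, with scores from 7.45 to 15.8. CLEC10A, a related lectin gene, lies in the ASGR2 window and had no summit of either mark at an end. In H3K4me1, ASGR1 had 30 summits at 15 µM, against 34 at 0 µM, and ASGR2 had 31 and 27.

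H3K4me1 was at an end of all 8 genes at 15 µM (100%, 63.1 to 100) and of 6 at 0 µM, against 52.9% and 51.6% of all protein-coding genes. The exceptions at 0 µM were HPX and ASGR2, whose nearest H3K4me1 summits were 1256 and 1305 bp from an end. All 6 kept one within 2 kb at 15 µM, as did 91.1% of all genes with one at 0 µM, the other 8.92% having none. None of the 8 had an end summit at 15 µM alone by the same rule, against 10.9% of all genes. In the gene and 5 kb around it, H3K4me1 summits numbered 74 at 15 µM, against 90 at 0 µM. There 3 of 8 genes had more at 15 µM, against 45.9% of all genes with one, and 4 of 8 had fewer, against 39.6%. Over the 8 windows the counts were 268 at 15 µM, against 267 at 0 µM. Per 100 kb the median was 27.8 at 15 µM, against 28.1 at 0 µM, beside 15.7 and 14.9 over all genes. After scaling, 4 of the 8 genes had more (50%) and 4 fewer at 15 µM, against 49.5% of all genes with H3K4me1 having more. TTR, HPX, VTN and ASGR2 had more H3K4me1 summits and fewer H3K27ac summits, and TF and RBP4 had the opposite. HP had fewer H3K4me1 and an equal number of H3K27ac summits, and ASGR1 had fewer of both. These are unscaled counts in the 50 kb windows. Under other settings, the sign of the scaled log2 ratio turned for TTR, HPX and VTN in H3K27ac. In H3K4me1 that sign turned for HP, HPX, RBP4, VTN, ASGR1 and ASGR2. The unscaled H3K27ac comparison of TF also turned, with 15 at 15 µM, against 16 at 0 µM, in 100 kb windows. Counted from its inner start, TF had 7 at 15 µM, against 8 at 0 µM.

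**Figure D4:**
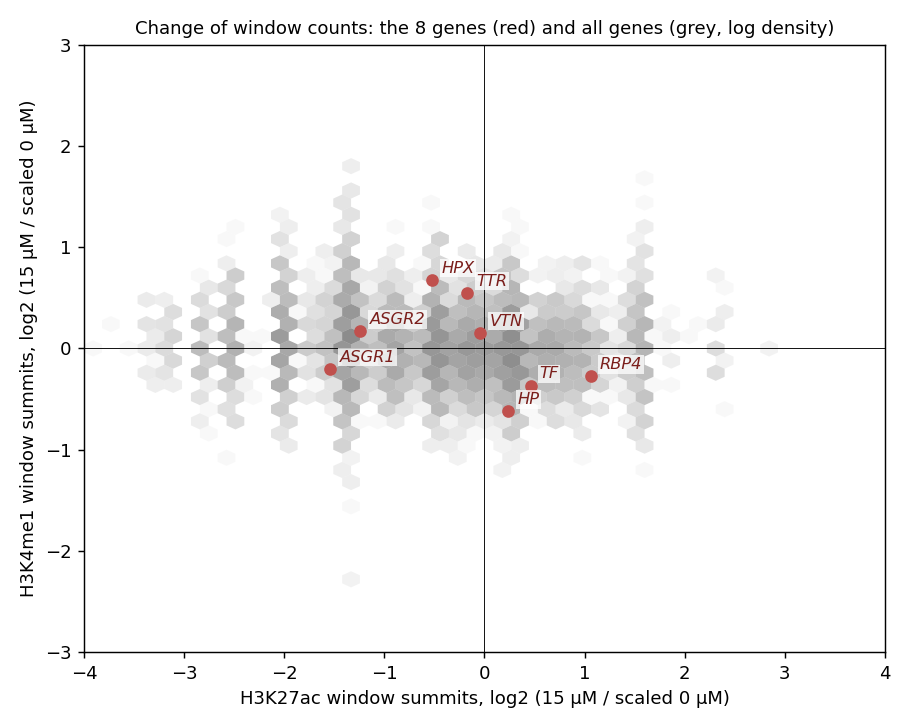
Scaled log2 ratio of window summit counts, 15 µM over 0 µM choline, for H3K27ac (horizontal) and H3K4me1 (vertical). Red points are the 8 genes, grey hexagons the density of the 13612 genes with H3K27ac in their window, 1 library per mark and dose. ASGR1 is at -1.54 and RBP4 at 1.06 on the horizontal axis.

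The marks and doses were also compared by position. Overlapping windows were joined, so that each summit was counted once. Of the 38 H3K27ac summits at 15 µM, 19 had one at 0 µM within 500 bp (50%, 33.4 to 66.6), against 50.7% of the whole list. Of the 48 at 0 µM, 21 had one at 15 µM (43.8%, 29.5 to 58.8), against 38.7%. For H3K4me1 the shares were 48.0% of 254 at 15 µM (41.7 to 54.4) and 48.4% of 254 at 0 µM (42.1 to 54.8), against 43.5% and 44.5%. H3K4me1 lay within 1 kb of 25 of the 38 H3K27ac summits at 15 µM (65.8%, 48.6 to 80.4), against 58.5% of the whole list. At 0 µM it lay within 1 kb of 38 of 48 (79.2%, 65.0 to 89.5), against 65.2%. Each of these 6 intervals included the value of the whole list, but they take summits as independent. Summits cluster, with 14 of the 38 H3K27ac summits at 15 µM in the TF window alone, so the intervals are not a test.

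Other genes of plasma transport and of the partners of these proteins were listed from their known roles. Over 16 further plasma carrier genes, H3K27ac window summits numbered 119 at 15 µM, against 113 at 0 µM. After scaling, 7 genes had more and 6 fewer, and 3 had none at either dose, where 36.7% of all genes with H3K27ac had more. Albumin (ALB) had 44 at 15 µM, against 24 at 0 µM. The copper carrier ceruloplasmin (CP) had 15 at 15 µM, against 24 at 0 µM. The neighbours AHSG and FETUB, which encode fetuins, had 12 at 15 µM, against 13 at 0 µM each. Of the 7 carriers with an end summit at 0 µM, 3 had none within 2 kb at 15 µM, against 43.9% of all genes with one at 0 µM. These 3 were HRG, ORM2 and the cortisol carrier SERPINA6. HPR had an end summit at 15 µM alone, the summit described above beside HP. That was 1 of the 5 carriers with an end summit at 15 µM, against 10.5% of all genes with one. For H3K4me1 the sums were 422 at 15 µM, against 450 at 0 µM.

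Over 20 receptor and partner genes, H3K27ac window summits numbered 156 at 15 µM, against 165 at 0 µM, with 9 genes higher, 8 lower after scaling and 3 with none. Of all genes with H3K27ac, 36.7% were higher. THRB, a thyroid hormone receptor, had 32 at 15 µM, against 27 at 0 µM. The iron exporter SLC40A1 had 28 at 15 µM, against 30 at 0 µM. ITGB5, a subunit of a vitronectin-binding integrin, had 21 at 15 µM, against 15 at 0 µM. Its end summit of 0 µM had no counterpart within 2 kb at 15 µM. That was 1 of the 9 partner genes with an end summit at 0 µM, against 43.9% of all genes with one. TFRC, the transferrin receptor, had 1 H3K27ac summit at 15 µM, at a gene end, and 0 at 0 µM. Of the 8 partner genes with an end summit at 15 µM, 1 thus had none within 2 kb at 0 µM, against 10.5% of all genes with one. The sums for H3K4me1 were 741 at 15 µM, against 793 at 0 µM.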

How the data were processed

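ChIP-seq for H3K27ac and H3K4me1 was analysed in 4 libraries of Huh7 cells, 1 per mark and dose, grouped by their titles. The authors deposited lists of peak summits, each line with a position and a −log10 significance score in the layout of MACS2 (p or q is not stated). Per the submitters' processing notes, Bowtie, Picard, deepTools and MACS2 were used on hg38, with no version given. Scores began at 5.01 in the H3K27ac lists at 15 and 0 µM, and at 1.30 and 1.31 in those of H3K4me1. Calling thresholds, duplicate handling and use of inputs are not given in the sources used here. A count of summits depends on depth and enrichment. Scores were used only within a list.

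Summits outside chromosomes 1 to 22 and X were left out (27 and 38 for H3K27ac, 429 and 422 for H3K4me1, at 15 and 0 µM). Gene spans came from RefSeq (GRCh38.p14), without strand or exons, so "end" means either annotated end, and exon, intron and UTR positions are not given. A scaled ratio is (count at 15 µM + 0.5) over (count at 0 µM × the ratio of list lengths + 0.5). Python 3.11.15, pandas 2.3.3 and SciPy 1.17.1 were used. The counting was checked on the 0 µM H3K27ac list, also with summits removed at chosen gene ends or at random. The 8 genes and all lists were chosen with earlier results of these data known. All 8 genes are named. Of the other lists, the 3 with most H3K27ac summits at 15 µM (ties included) and those with an end summit at one dose only (none within 2 kb at the other) are named. So are neighbours with a window summit at an end, and the 3 genes most like the one with most H3K27ac summits.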

Additional observations from a re-analysis of the deposited data

How the results depend on the processing

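Over the 8 genes, the scaled log2 ratio of H3K27ac window counts was 0.01, and it lay between -0.18 (100 kb windows) and 0.58 (5 kb) in the 8 alternatives. For H3K4me1 it was -0.02, between -0.31 and 0.10. By listed transcript starts alone, 2 of the 4 genes had H3K4me1 within 1 kb at 15 µM, against 4 by either end. With lists of equal length, 1 gene, ASGR1, had an H3K27ac end at 15 µM and none within 2 kb at 0 µM, against 0 otherwise. The shares with the other dose nearby depended on the distance by construction. Within 2 kb they were 78.9% at 15 µM and 66.7% at 0 µM for H3K27ac. For H3K4me1 they were 29.5% at both doses within 250 bp, 62.6% at 15 µM and 66.9% at 0 µM within 1 kb, and 81.1% and 85.0% within 2 kb. The share of H3K27ac summits with H3K4me1 nearby was 44.7% at 15 µM and 54.2% at 0 µM within 500 bp, and 89.5% and 93.8% within 2 kb. Among single genes, the sign of the scaled log2 ratio turned under at least 1 alternative for 3 of 8 genes in H3K27ac and 6 of 8 in H3K4me1. In H3K27ac these were TTR (to 0.32), HPX (to 0.97) and VTN (above 0 in 5 of 6 alternatives, up to 0.68). In H3K4me1 they were ASGR1 (to 0.13), ASGR2 (to -0.40), RBP4 (to 0.03), VTN (to -0.14), HP and HPX. The last pair alone had passed 1.5-fold before turning, HP to 0.13 with scores at or above the list median and HPX to -0.023 within 5 kb. H3K27ac of HP lay between 0 and 1.58, and of ASGR1 between -1.31 and -0.45. The cause was not tested. RBP4 remained above 0 and ASGR1 and ASGR2 below 0 for H3K27ac in all alternatives run. The 5 kb window and the inner TF start were chosen after seeing the data. Window counts were 1 to 14 summits per gene for H3K27ac and 21 to 66 for H3K4me1. The small H3K27ac counts limit the comparisons of that mark, and 1 library per dose limits every comparison. No paired analysis was possible because each mark and dose has 1 library.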
